A study of Mus musculus with 6 samples.

Results

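Imprinted miRNA hairpins, 5 in number, were examined in white adipose tissue (WAT) from the epididymal depot of mice that overexpress angiotensinogen. They were miR-335 from Mest, miR-483 from Igf2, miR-675 from H19, and miR-296 and miR-298 from the Gnas region. They were chosen by name and locus, by a rule that used none of their values, though earlier results of these data were known. Every arm listed was taken, which gave 9 of the 1983 rows of the table. Of the 9, 4 were above the lower limit of the table in at least 3 of the 6 libraries and are described in depth (miR-335-5p, miR-335-3p, miR-296-5p and miR-296-3p). The other 5 were at that limit in every library.

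The samples were small RNA libraries from male mice of the strain labelled C57BL6/J, 3 wild type (Wt) and 3 angiotensinogen transgenic (Agt Tg). In Agt Tg mice the angiotensinogen gene is overexpressed from the aP2 promoter in adipose tissue. The labels give a chow diet for both groups, whereas the methods of the study describe a low fat diet, and no age is given in the sources used here. Angiotensinogen mRNA is not measured in small RNA libraries, so the transgene could not be checked in them. Whole WAT was used, and in such bulk tissue fewer cells of a type and less RNA per cell cannot be told apart.

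An imprinted gene is transcribed mainly from the copy inherited from a single parent. Many imprinted genes act on fetal growth and on the size of fat stores. Mest is expressed from the paternal copy and is known in mice for its link to the enlargement of fat cells, and Igf2, also paternal, encodes a growth factor. H19 is a maternally expressed noncoding RNA that serves as the precursor of miR-675. Gnas encodes the stimulatory G protein subunit through which hormones raise cyclic AMP in fat cells. A miRNA hairpin is cut into a 5p and a 3p arm, and the arm that is loaded into Argonaute pairs with its targets mainly through its seed, bases 2 to 8.

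The mature mouse sequences of the 4 arms that were detected are shown because the rows of the table carry human names and a row can hold only mouse reads that match its sequence. They are given 5′ to 3′ from RefSeq (GRCm38.p6), with the seed in capitals.
miR-335-5p: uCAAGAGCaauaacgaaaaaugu
miR-335-3p: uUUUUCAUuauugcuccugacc
miR-296-5p: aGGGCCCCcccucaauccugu
miR-296-3p: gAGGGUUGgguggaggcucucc
The miR-335 arms are poor in G and C, with 30.4% in the 5p and 36.4% in the 3p arm, while the miR-296 arms hold 66.7% and 68.2%. No other mature mouse miRNA of the RefSeq table had the seed of any of these 4 arms (0 others for each), so that each stands alone as a seed family there.

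The hairpin of Mir335 lies on chromosome 6 of GRCm38 from 30741299 to 30741396 on the plus strand, within 7 annotated transcripts of Mest (GENCODE M21) and in 0 of their exons, so it is intronic. Mir296 lies on chromosome 2 from 174267047 to 174267125 on the minus strand. Mir298 lies on the same strand at higher coordinates, from 174267504 to 174267585, with 378 bases between them. Both lie outside the annotated gene bodies of Nespas and Gnas. Nespas, the antisense transcript of the region, is annotated on the same strand as Mir298 and ends 13651 bases from it.

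The values were log2 of reads per 10000000 reads of the library. Every value below 10 on the linear scale had been raised to 10, a log2 value of 3.32, and this limit is called the floor here. Library totals ran from 6387766 to 10562634 reads, and the floor was worth 6.39 to 10.6 reads. Of all 1983 rows, 1610 (81.2%) were at the floor in all 6 libraries. Wt replicate 2 stood apart from the others in its markers of neighbouring tissue. Its summed level of the epididymis and testis list (miR-34b, miR-34c and miR-449) was 88164 reads per 10000000, compared with 867 to 1436 in the other libraries. Its epithelial list was at 54820, compared with 388 to 678 in the others. Values without this library are given beside the results of the imprinted arms that it moved.

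miR-335-3p was the most abundant of the imprinted arms, and it ranked between 48 and 73 among all rows of the table in the 6 libraries. Its log2 level was 13.28, 12.01 and 12.52 in Wt replicates 1, 2 and 3, and 12.72, 12.03 and 11.97 in Agt Tg replicates 1, 2 and 3. These values stand for 7452, 3225 and 5752 reads in Wt and for 6992, 2673 and 4238 reads in Agt Tg. The groups overlapped, with Wt replicate 1 highest, and Wt replicate 2 lay among the Agt Tg libraries. Even the lowest library was 401 times the floor, so counting error was small beside the difference between mice.

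miR-335-5p ranked between 72 and 93. Its log2 level was 11.94, 11.03 and 11.43 in Wt replicates 1, 2 and 3, and 11.38, 11.05 and 11.06 in Agt Tg replicates 1, 2 and 3. The order of the libraries was led again by Wt replicate 1. Wt replicate 2 and Agt Tg replicates 2 and 3 lay within the 95% counting intervals of each other (Clopper-Pearson, 1997 to 2201, 2013 to 2240 and 2046 to 2223 reads per 10000000). Intervals of this kind cover counting error only.

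miR-296-5p was much lower, with ranks from 150 to 254, and far more variable. Its log2 level was 7.93 in Wt replicate 1, 6.71 in Wt replicate 2 and 8.29 in Wt replicate 3, from 182, 82 and 307 reads. In the transgenic mice it was 7.21, 6.37 and 4.73 in replicates 1, 2 and 3, from 153, 53 and 28 reads. Agt Tg replicate 3 was the lowest library and Wt replicate 3 the highest, with levels 11.8 times apart. The corresponding span was 2.48 times for miR-335-3p and 1.87 times for miR-335-5p. The groups overlapped because Agt Tg replicate 1 was above Wt replicate 2. The counting intervals of the lowest and highest library, 17.6 to 38.3 and 279 to 350 reads per 10000000, were far apart, so the spread exceeded counting error.

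miR-296-3p was close to the floor. It had 9, 15 and 27 reads in Wt replicates 1, 2 and 3 and 16 reads in Agt Tg replicate 1, and it was at the floor in Agt Tg replicates 2 and 3. Its log2 levels above the floor ran from 3.59 to 4.78. Wt replicate 1, with the fewest reads above the floor, had a counting interval of 5.5 to 22.8 reads per 10000000 that includes the floor.

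**Figure D1:**
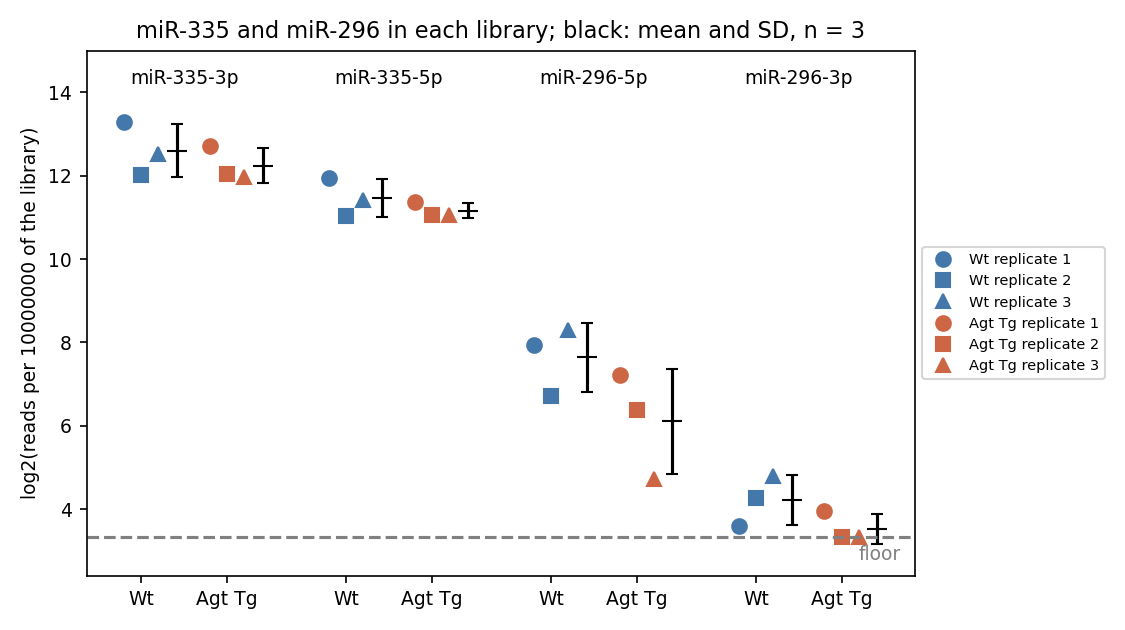
Level of each detected arm in each library, as log2 of reads per 10000000 reads of the library, with Wt in blue, Agt Tg in orange and symbol shape giving the replicate number (black marks, mean and SD, n = 3; dashed line, the floor at 3.32). The groups overlap in all 4 arms, and miR-296-5p in Agt Tg replicate 3, at 4.73, lies furthest from the others.

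In the order of levels, miR-335-3p came before miR-335-5p, then miR-296-5p and last miR-296-3p, in 6 of 6 libraries. Together the miR-335 arms made up at least 96.2% of the reads on the 4 arms in every library. The summed level of the 4 arms was 9810 ± 3974 reads per 10000000 in Wt and 7379 ± 1903 in Agt Tg (SD, n = 3). The difference of the mean log2 sums was −0.36, within the spread (two-sided exact permutation test, p = 0.6). It was −0.64 without Wt replicate 2, −0.56 without Agt Tg replicate 1 and −0.06 without Wt replicate 1. With 3 mice against 3, an exact permutation test cannot go below p = 0.1.

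The question of the comparison between genotypes was which miRNAs differ in WAT when angiotensinogen is overexpressed. Genotype was tested with limma on every row that exceeded the floor in 3 or more libraries, which left out 1654 of the 1983 rows. The threshold was an unadjusted p no larger than 0.05 together with a log2 fold change of 1 or more in size, a fold of 2. Of the 4 imprinted arms, 0 passed it. Of all tested miRNAs 16 (4.86%) passed, of which 9 had the higher mean in Agt Tg (2.74%) and 7 the lower (2.13%). After Benjamini-Hochberg adjustment limma left 0 tested miRNAs (0%) under 0.05, with 30 (9.12%) under 0.05 before adjustment, and limma-voom also left 0, with 32 before adjustment. All 4 arms had a lower mean in Agt Tg, as had 222 of the tested miRNAs (67.5%), whose median log2 fold change was −0.19.

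miR-296-5p had the largest difference of the 4. Its mean log2 level was 7.64 ± 0.83 in Wt and 6.10 ± 1.26 in Agt Tg (SD, n = 3). Its log2 fold change was −1.54, with a standard error of 0.70 (limma unadjusted p = 0.0623, Benjamini-Hochberg adjusted p = 0.531). The 95% interval of this difference ran from −3.18 to 0.10, so neither a large decrease nor no change lay outside it. Relative to the median of all miRNAs the difference was −1.35. A log2 fold change of −1 or below was seen in 26 of the tested miRNAs (7.9%). Whether it passed depended on single libraries. Without Wt replicate 2 the log2 fold change was −2.0 (limma adjusted p = 0.299), and without Agt Tg replicate 1 it was −2.09 (limma adjusted p = 0.201), and in both cases it passed the unadjusted threshold. Without Agt Tg replicate 3 it was −0.85, the smallest value obtained. Scaling to miR-191-5p, the reference miRNA of the RT-qPCR of the study, left the difference at −1.54 and brought it past the unadjusted threshold (limma unadjusted p = 0.0331, adjusted p = 0.666).

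The within-genotype spread of miR-296-5p, a pooled SD of 1.07 on the log2 scale, was among the widest of the table. Only 19 of the tested miRNAs (5.78%) had a larger one, and the median was 0.41. The pooled SD was 0.54 for miR-335-3p, 0.35 for miR-335-5p and 0.49 for miR-296-3p.

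For miR-296-3p the log2 fold change was −0.68 (standard error 0.39, 95% interval −1.60 to 0.25, limma adjusted p = 0.553). This value is fitted to floor values in 2 of 3 Agt Tg libraries, which compresses it. The difference of the measured means was thus −0.68 or lower, and the interval, fitted to the same floor values, does not bound it. The fitted log2 fold change was −0.39 without Wt replicate 3 and −0.99 without Wt replicate 1, short of the threshold in both cases.

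The miR-335 arms differed less between genotypes. miR-335-3p had a mean of 12.60 ± 0.64 in Wt and 12.24 ± 0.42 in Agt Tg (SD, n = 3), and its log2 fold change was −0.36 (standard error 0.37, 95% interval −1.23 to 0.51, limma adjusted p = 0.691). miR-335-5p had 11.47 ± 0.45 and 11.16 ± 0.19 (SD, n = 3), and its log2 fold change was −0.30 (standard error 0.27, 95% interval −0.95 to 0.34, limma adjusted p = 0.668). Relative to the median of all miRNAs these were −0.17 and −0.12. Wt replicate 1 carried most of both. Without it the log2 fold changes were −0.02 for miR-335-3p and −0.07 for miR-335-5p, and without Wt replicate 2 they were −0.66 and −0.52, in each case short of the threshold. With all 6 libraries the interval of miR-335-5p does not reach a fold of 2 in either direction, whereas for miR-335-3p a decrease of that size lay inside it. This limit for miR-335-5p depends on Wt replicate 2. Without that library its unadjusted limma p was 0.0601, so a 95% interval centred on −0.52 includes 0 and also −1.

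**Figure D2:**
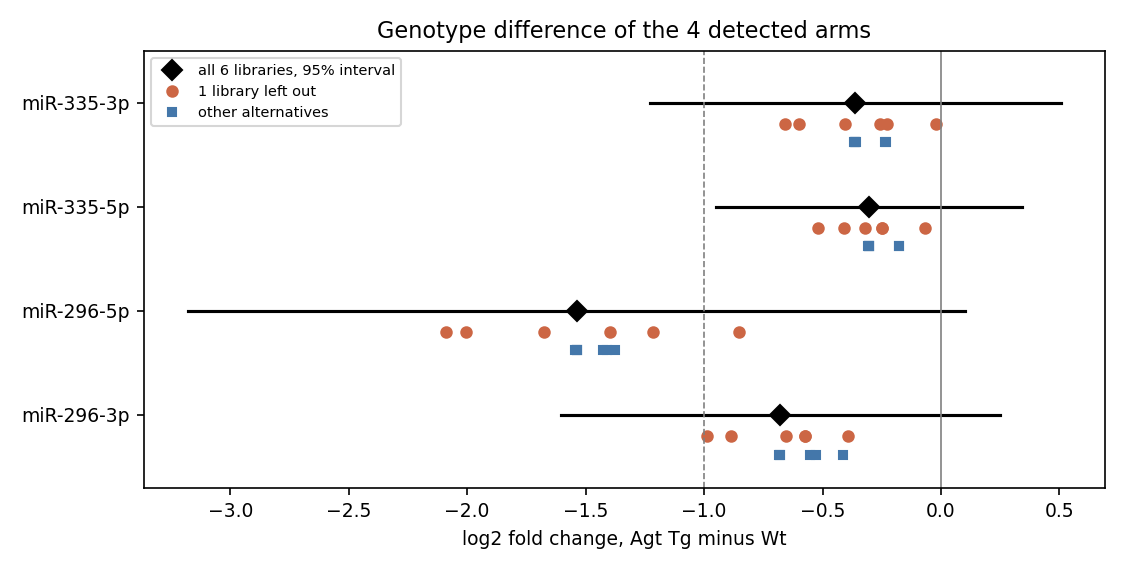
Log2 fold change of each detected arm, Agt Tg minus Wt. Black diamonds with bars give the estimate and its 95% limma interval from all 6 libraries, orange points the values with 1 library left out and blue squares the other alternatives (dashed line, −1). All 4 intervals include 0, and the values of miR-296-5p run from −2.09 to −0.85.

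The ratio of the arms within a library does not depend on how libraries are scaled. In miR-335 the 3p arm was the higher one in 6 of 6 libraries. The log2 ratio of 5p to 3p was −1.34, −0.97 and −1.09 in Wt replicates 1, 2 and 3, and −1.34, −0.98 and −0.91 in Agt Tg replicates 1, 2 and 3. The 3p arm was thus 1.88 to 2.54 times as abundant as the 5p arm, with the widest gap in replicate 1 of each genotype. The genotypes differed by 0.06 in this ratio, less than the spread between mice (SD 0.19 in Wt and 0.23 in Agt Tg, n = 3, exact permutation p = 0.7, 0.7 after adjustment over the 2 hairpins). Of the 70 hairpins with both arms tested, 34 had the higher mean in the 3p arm, and the median size of the ratio was 5.08 on the log2 scale. Only 10 of the 70 had a smaller ratio than miR-335, with its mean of 1.11, so its arms were among the more balanced ones.

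In miR-296 the 5p arm was the higher one, again in 6 of 6 libraries. The log2 ratio of 5p to 3p was 4.34, 2.45 and 3.51 in Wt replicates 1, 2 and 3 and 3.26 in Agt Tg replicate 1. In Agt Tg replicates 2 and 3 the 3p arm was at the floor, and the values of 3.05 and 1.41 there are lower limits. The genotype difference, computed with those limits, was −0.86 (exact permutation p = 0.4, adjusted p = 0.7). It was −0.28 without Agt Tg replicate 3, −0.41 without Wt replicate 1 and −1.35 without Wt replicate 2. Since 2 of the 3 Agt Tg ratios are lower limits, the sign of this difference is not fixed.

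**Figure D3:**
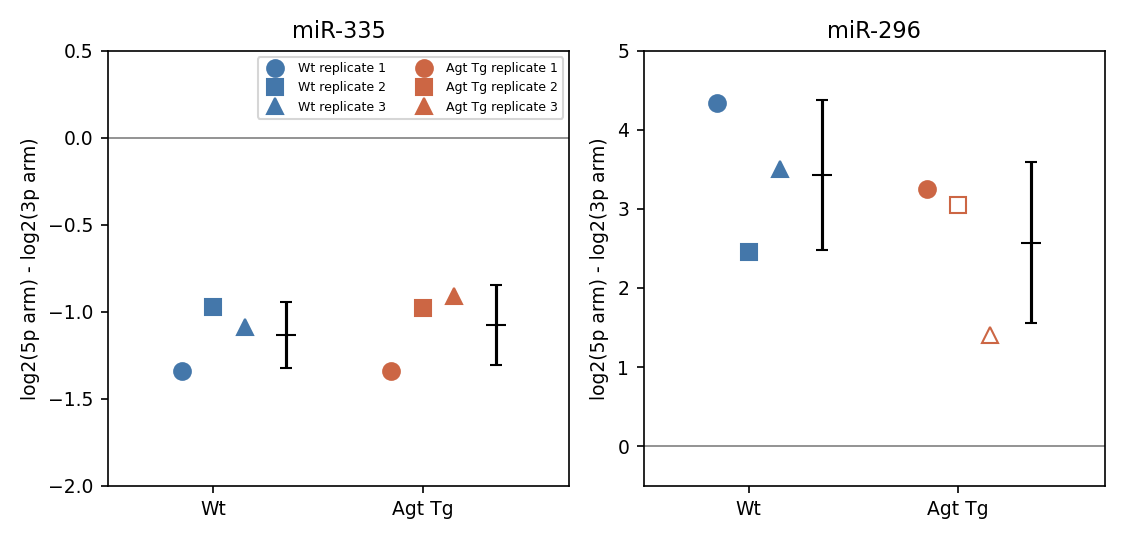
Log2 ratio of the 5p to the 3p arm in each library for miR-335 (left) and miR-296 (right), with Wt in blue and Agt Tg in orange (black marks, mean and SD, n = 3). Open symbols mark libraries in which the 3p arm was at the floor. All miR-335 values lie below 0 and all miR-296 values above 0.

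The arms of miR-335 followed each other across the 6 libraries (Pearson's r = 0.98, given as a description of likeness on the log2 scale, since values of a library share its depth). By the same measure the rows most like miR-335-3p were miR-505-5p (0.996), miR-335-5p and miR-379-3p of the Dlk1-Dio3 region (0.95). Those most like miR-335-5p were miR-505-5p (0.993), miR-335-3p and miR-106b-3p (0.94). miR-505-5p was at the floor in 3 of the 6 libraries and miR-379-3p in 1. The rows most like miR-296-5p were miR-411-3p of the Dlk1-Dio3 region (0.97), miR-184 of the imprinted Rasgrf1 region (0.97) and miR-532-3p (0.95). For miR-296-3p they were miR-3142 (0.95), miR-214-3p (0.88) and miR-10b-5p (0.84). Both miR-3142 and miR-296-3p were at the floor in 2 of the 6 libraries, so their likeness rests partly on floor values. miR-296-5p had a likeness of 0.71 to miR-335-3p and 0.65 to its own partner arm.

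Both hairpins were highest in the same libraries. The summed level of the miR-335 arms was 13888, 8612 and 9409 reads per 10000000 in Wt replicates 1 and 3 and Agt Tg replicate 1, and 6211, 6309 and 6145 in Wt replicate 2 and Agt Tg replicates 2 and 3. That of the miR-296 arms was 255.3, 340.1 and 163 in the first 3 of these libraries and 123.7, 83 and 26.5 in the others. These sets of libraries each hold mice of both genotypes.

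Other imprinted miRNAs, taken from a fixed list, were set beside them. The list held the miRNAs of the Dlk1-Dio3 region, which are expressed from the maternal copy, with miR-1247 of Dio3os and miR-184, and 28 of its 83 rows were tested. Of the 28, 0 passed the threshold as higher and 3 as lower in Agt Tg (miR-127-5p, miR-134 and miR-184), compared with the 2.13% of all tested miRNAs. The median log2 fold change of the 28 was −0.56, compared with −0.19 over all tested miRNAs. Of the 28, 26 were below 0, compared with 67.5% of all tested miRNAs. Rows of the Dlk1-Dio3 region made up 25 of the 28, so they are not 28 separate loci. With 1 library left out the median ran from −0.93 (without Agt Tg replicate 1) to −0.41 (without Agt Tg replicate 2). The count of 3 ran from 0 without Agt Tg replicate 3 to 7 without Agt Tg replicate 1, and it was 1 without Wt replicate 1 or Agt Tg replicate 2 and 4 without Wt replicate 2.

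miR-184, from the Rasgrf1 region, was at 5.67, 5.44 and 6.25 in Wt replicates 1, 2 and 3 and at 5.20, 4.82 and 3.73 in Agt Tg replicates 1, 2 and 3. Its groups did not overlap, as in 58 of the tested miRNAs (17.6%), and its log2 fold change was −1.21 (standard error 0.46, limma adjusted p = 0.485). The most abundant tested rows of the Dlk1-Dio3 region were miR-127-3p, with a log2 fold change of −0.42, and miR-411-5p, with −0.66. miR-1247-5p had −1.06 and miR-1247-3p −0.81, and none of these 4 passed the threshold. The summed level of the Dlk1-Dio3 rows was 37742, 32597 and 34130 reads per 10000000 in Wt replicates 1 and 3 and Agt Tg replicate 1. It was 23233, 18622 and 17055 in Wt replicate 2 and Agt Tg replicates 2 and 3, so that the same 3 libraries were higher as for miR-335 and miR-296. How many of all tested miRNAs split the libraries in this way was not counted, so the split cannot be called particular to imprinted miRNAs.

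The summed erythroid markers were higher in the same 3 libraries as these levels. The leukocyte sum was also highest in these 3, but Wt replicate 2 lay just below them. The erythroid list (miR-451a, miR-486 and miR-144, 5 of 5 rows tested and 0 at the floor in every library) summed to 172010, 177232 and 208134 reads per 10000000 in Wt replicates 1 and 3 and Agt Tg replicate 1. In Wt replicate 2 and Agt Tg replicates 2 and 3 it summed to 50991, 111087 and 93203. The largest row of this list was miR-486-5p, with a mean log2 level of 16.76 in Wt and 16.90 in Agt Tg. For miR-451a these means were 12.09 and 12.38. The sums therefore mainly follow miR-486-5p, and miR-451a and miR-144 were not set out by library. The leukocyte list (6 of 8 rows tested, 2 at the floor in every library) summed to 45114, 43610 and 45885 in Wt replicates 1, 2 and 3 and to 44347, 32863 and 29377 in Agt Tg replicates 1, 2 and 3. Wt replicate 2 thus lay close to the other Wt libraries in this list. The part of these cells in the levels of the imprinted miRNAs was not tested. The stromal fibroblast list (miR-199 and miR-214, 5 of 6 rows tested) was highest in Wt replicate 2, at 81956, and ran from 26847 to 53383 in the others. Its rows miR-199a-3p and miR-199b-3p had the same means (14.50 in Wt and 14.12 in Agt Tg), and the sum counts both. The endothelial list (miR-126, 2 of 2 rows tested) ran from 70782 to 87273 in Wt and from 77582 to 118266 in Agt Tg. The adipocyte list (12 of 15 rows tested) summed to between 628890 and 879108 in all 6 libraries, with the highest value in Agt Tg replicate 3. The sum was thus high in every library, but its largest row was miR-143-3p, with a mean log2 level of 18.61 in Wt and 18.84 in Agt Tg. For miR-378a-3p these means were 15.72 and 15.77.

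**Figure D4:**
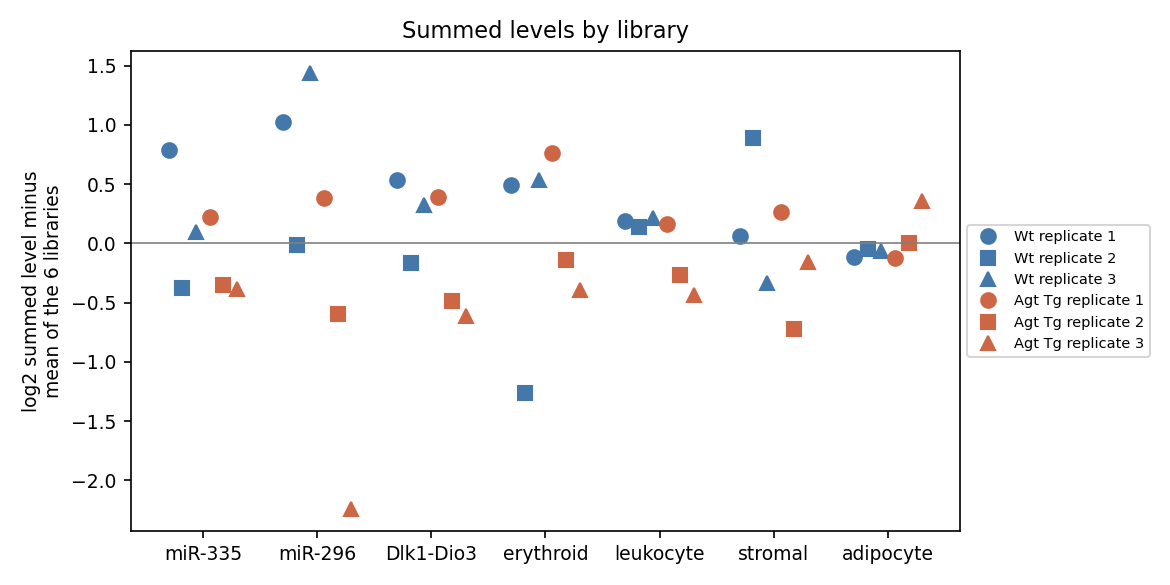
Summed level of the miR-335 arms, the miR-296 arms, the Dlk1-Dio3 rows and 4 marker lists in each library, as the difference of its log2 from the mean of the 6 libraries, with Wt in blue, Agt Tg in orange and symbol shape giving the replicate number. Wt replicates 1 and 3 and Agt Tg replicate 1 lie above the other 3 libraries for miR-335, miR-296, Dlk1-Dio3 and erythroid rows. They also do for leukocyte rows, where Wt replicate 2, at 0.14, is just below Agt Tg replicate 1, at 0.16. miR-296 spans the widest range, from −2.24 to 1.44.

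The rows of the remaining hairpins were not above the floor. miR-483-5p, miR-483-3p, miR-675-5p, miR-675-3p and miR-298 were at the floor in 6 of 6 libraries of both genotypes, which limits each row to less than 10 reads per 10000000 reads and allows no fold change. Being at the floor everywhere was the state of 81.2% of the table. Mir483 lies on chromosome 7 from 142654924 to 142654996 on the minus strand, within 7 transcripts of Igf2 and 0 of their exons. Mir675 lies on the same chromosome and strand from 142577064 to 142577147 and overlaps an exon in 3 of 4 annotated H19 transcripts. The bases between these hairpins number 77776.

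What a floor value means for these rows depends on their sequence, and the mouse sequences are shown for that reason (RefSeq, GRCm38.p6, 5′ to 3′, seed in capitals).
miR-483-3p: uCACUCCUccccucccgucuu
miR-675-3p: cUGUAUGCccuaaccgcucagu
miR-298-5p: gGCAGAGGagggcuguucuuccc
The mature sequences of these miRNAs are known to differ between human and mouse, and the rows carry human names. The human sequences and the number of mismatches allowed were not used here, so whether mouse reads of miR-483, miR-675 or miR-298 could have been counted in these rows was not tested. The floor therefore limits what the rows hold, not the amount of these miRNAs in the tissue. miR-298 and miR-296 lie next to each other, and in the same libraries miR-296-5p had 28 to 307 reads while the row of miR-298 stayed at the floor.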

How the data were processed

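Small RNA libraries of 3 Wt and 3 Agt Tg mice were grouped by the sample titles. The authors checked reads with FastQC, mapped them to miRBase precursors and kept reads on mature miRNAs. The values they deposited are log2 of reads per 10000000, with a lower limit of 10 on the linear scale. The unit was inferred from the table itself, since 1924 of 1924 values above the floor were whole reads within 0.02, which gave the totals. The miRBase release is not given in the sources used here, nor is the mismatch setting. All columns mapped to a sample (0 left out).

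Rows exceeding the floor in 3 or more libraries were fitted with limma 3.58.1 (R 4.3.3, variance trend, genotype as only term, Benjamini-Hochberg adjustment over all tested rows). Exact permutation tests were two-sided. The code was tested on simulated data. Alternatives were log2(CPM + 1), TMM scaling (30% and 5% trimmed), limma-voom, scaling to miR-191-5p, no filter (without trend), a replicate block, a filter at a mean CPM of 10, and each library left out. Loci and sequences came from GENCODE M21 and RefSeq, and 10 of 10 mature sequences matched a row by number and, where the row gave one, arm. Pairs of mature miRNA and row rest on names. The members, lists and tests were chosen with earlier results of these data known. Named were all rows of the 5 hairpins, the 3 rows most correlated with each described row, the 2 most abundant Dlk1-Dio3 rows, miR-184, miR-1247 and called members of that list. Replicates are separate mice only as far as the labels say, so p-values measure the spread between these libraries.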

Additional observations from a re-analysis of the deposited data

How the results depend on the processing

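None of the 4 arms changed the sign of its log2 fold change under the alternatives in which it was fitted. miR-335-3p, miR-335-5p and miR-296-3p passed the threshold under none of these. At a mean CPM of 10 the filter left out miR-296-3p, so that alternative does not cover it. The number of imprinted arms past the threshold was 0 except for 1, miR-296-5p, with scaling to miR-191-5p, and it ran from 0 to 1 with each library left out. Over all miRNAs the count was 16 and became 7 on log2(CPM + 1), 10 with no filter, 3 at a mean CPM of 10, 30 without a fold threshold and 12 to 35 with each library left out (23 without Wt replicate 2 and 35 without Agt Tg replicate 1). TMM scaling moved the median of all miRNAs by 0.13. It shifts all rows of a library alike, so the differences relative to the median could not change. It gave 10 higher and 5 lower calls (66.7% higher, compared with 56.2%), and limma-voom gave 10 and 4 (71.4%). The balance turned the other way at a mean CPM of 10 (1 higher and 2 lower, 33.3%), with the replicate block (8 and 9, 47.1%) and without Wt replicate 3 (9 and 13, 40.9%), Agt Tg replicate 1 (10 and 25, 28.6%) or Agt Tg replicate 2 (6 and 7, 46.2%). For the arm ratio of miR-335 the difference of 0.06 turned to −0.046 without Wt replicate 1 and −0.024 without Agt Tg replicate 3, within a range of −0.046 to 0.19. The number of other imprinted miRNAs called ran from 0 to 7 with each library left out. The cause of these changes was not tested. The labels share replicate numbers but name no pairing, and same-numbered libraries did not deviate together (correlations over miRNAs of 0.22, −0.18 and −0.21). With the replicate block 17 miRNAs and 0 imprinted arms were called. The floor, worth 6.39 to 10.6 reads, limits miR-296-3p and the 5 rows at it.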
